A study of Mus musculus with 6 samples.

Results

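The collagen chain genes are the 44 of 55367 listed gene symbols that consist of Col, a number, the letter a and a second number, which is how mouse genes for the alpha chains of collagen are named. By chain type, 11 of them encode fibrillar chains, 8 encode chains of basement membranes and 25 encode other chains. RNA-seq was performed on polyA RNA of freshly isolated kidney cells that bind Dolichos biflorus lectin (DBA), a plant lectin of collecting duct epithelium, and the study asked what changes in these cells in autosomal dominant polycystic kidney disease (ADPKD) and under treatment with MMPP. MMPP is a small melanin-like nanoparticle that carries manganese and polyethylene glycol. The WT libraries came from saline-treated mice of the WT genotype. The ADPKD libraries came from saline-treated Pkd1-/- mice, and the ADPKD+MMPP libraries from Pkd1-/- mice that received MMPP by repeated intravenous injection. The deletion was made in male Pkd1 fl/fl mice with a Cre/Esr1 transgene and postnatal tamoxifen, and the promoter of the transgene is not given in the sources used here. Cells were released with collagenase and hyaluronidase, and all 6 libraries, 2 in each of the 3 groups, carry the time label Day115. The labels do not say whether the libraries of a group came from separate mice, so the p-values measure the spread between these libraries, which may be technical.

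Collagens are the main structural proteins of the extracellular matrix, and each molecule is a triple helix of alpha chains. Fibrillar collagens build the fibres of the interstitium and are best known as products of fibroblasts and pericytes, while collagen IV forms the network of the basement membrane on which tubule cells, endothelium and podocytes rest. A growing interstitial matrix and altered tubular basement membranes are known features of polycystic kidneys.

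Levels are given as FPKM, fragment counts scaled by gene length and library depth, which allows comparison between chains of different length. The steps between low FPKM values gave a depth of 30575125 to 33075217 reads per WT or ADPKD library, and of 11806907 and 10910096 reads per ADPKD+MMPP library. Pkd1 stood at 17.7 and 17.2 FPKM in WT, 7.64 and 8.91 in ADPKD and 4.34 and 3.99 in ADPKD+MMPP. Principal cell markers were present, with Aqp2, the water channel of these cells, between 677 and 3555 FPKM in every library, whereas Avpr2 was at most 0.0587 FPKM. Markers of other kidney cells were present as well. In the ADPKD libraries all 7 podocyte genes and all 8 intercalated cell genes were called lower than in WT, 9 of 10 endothelial genes were lower, 4 of 12 proximal tubule genes were higher, 3 of 5 thick limb and distal tubule genes were lower, and 7 of 8 tested leukocyte genes were higher, where 14.2% of all tested genes were called higher and 12.5% lower. In bulk RNA, fewer cells of a type and less RNA per cell cannot be told apart.

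Of the 44 chain genes, 26 reached 1 FPKM in at least 2 libraries and were tested, 7 fibrillar, all 8 basement membrane and 11 other chains. The remaining 18 lay below this limit. Among the tested genes, Col1a1, Col3a1, Col5a3, Col6a2, Col8a2, Col10a1 and Col14a1 were under 1 FPKM in both WT libraries and passed through the other groups alone. Changes are differences of log2(FPKM + 1), which understate the change of genes with low FPKM, and come from 1 limma fit over the 6 libraries and 14862 genes. A call required a change of 1.5-fold or more and an unadjusted P under 0.05.

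In WT cells the chain genes were dominated by collagen IV and collagen XVIII. Col4a1 led with 199 and 208 FPKM, ahead of Col4a2 with 164 and 169 and Col18a1 with 94.6 and 117. Col4a3 (41.7 and 54.1 FPKM), Col4a4 (33.7 and 36.9), Col15a1 (25.9 and 21.7) and Col4a5 (15.5 and 18.1) followed. The WT values of Col4a3 lay above both of Col4a4, and the order of the first 7 chains was the same in both libraries. Below these, Col1a2, Col6a3, Col12a1, Col5a2 and Col8a1 lay between 5.40 and 9.94 FPKM in an order that differed between the libraries, and no further chain exceeded 5.28 FPKM.

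The summed FPKM of all 44 chain genes was 631 and 684 in WT, 933 and 865 in ADPKD and 644 and 665 in ADPKD+MMPP. Its makeup differed between the groups. Basement membrane chains held 91.2% and 91.6% of the sum in WT, 79.9% and 76.0% in ADPKD and 64.6% and 63.3% in ADPKD+MMPP. Fibrillar chains held 3.65% and 3.75%, 12.1% and 14.3%, and 29.6% and 30.2% in the same order. The WT libraries had a fibrillar sum of 24.4 ± 1.87 FPKM (SD, n = 2). The sum was 4.87 times as high in ADPKD, at 119 ± 7.76 FPKM (SD, n = 2), and the ADPKD+MMPP libraries were highest at 196 ± 7.38 FPKM (SD, n = 2), with no overlap between groups. The sum of the other chains was 32.4 and 32.1 FPKM in WT, 74.8 and 83.1 in ADPKD, and 37.9 and 43.2 in ADPKD+MMPP. These sums are given as a description, with no test. The FPKM of all listed genes summed to 266194 and 266726 in WT, 284459 and 281586 in ADPKD, and 350159 and 351015 in ADPKD+MMPP. The sums of the chains, and of the cell markers below, were not scaled to a common total. A sum in ADPKD+MMPP near that of WT is thus not the same share of all FPKM. The ADPKD+MMPP values varied with gene structure, as described below, and the sums were not centred for it. Treatment and the making of these values cannot be told apart.

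**Figure D1:**
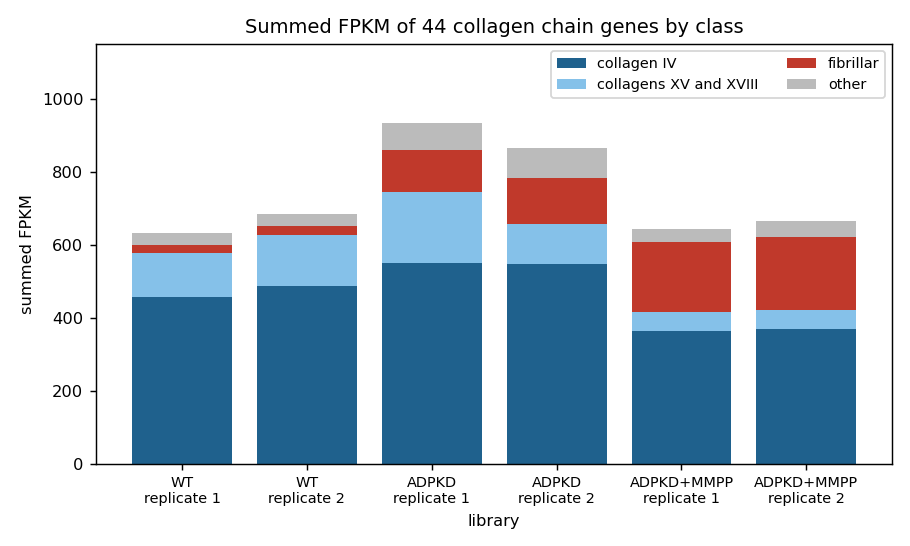
Summed FPKM of the 44 collagen chain genes in each of the 6 libraries, stacked by class, with the basement membrane chains divided into collagen IV and collagens XV and XVIII. The fibrillar part goes from 23.0 and 25.7 FPKM in the WT bars to 190 and 201 FPKM in the ADPKD+MMPP bars, and the basement membrane part is lowest in the ADPKD+MMPP bars. The sums are not centred by gene structure or scaled to a common total FPKM.

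The first comparison, ADPKD against WT, asks how loss of Pkd1 changes the matrix genes of these cells. Of the 26 tested chain genes, 13 were called higher and 1 was called lower, where 14.2% of all tested genes were called higher and 12.5% lower. The groups did not overlap in 17 chains that were higher and 1 that was lower in ADPKD, beside 35.5% and 31.5% of all tested genes. With the Benjamini-Hochberg adjusted p from limma under the same limit, 11 were higher and 1 was lower, against 11.9% and 10.6% of all genes. By class, 6 of the 7 tested fibrillar chains and 7 of the 11 tested other chains were called higher, and none of the 8 basement membrane chains was called. The median log2 fold change was 1.51 over the tested fibrillar chains, 0.21 over the basement membrane chains and 0.72 over the other chains, beside 0.03 over all tested genes. The class counts and medians depend on the filter, as 7 of the 13 chains called higher passed it through other groups than WT. All 8 basement membrane chains were above 1 FPKM in both WT libraries. The difference between the classes is therefore a description only. Without the filter the medians were 0.85 for the fibrillar and 0.18 for the other chains.

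**Figure D2:**
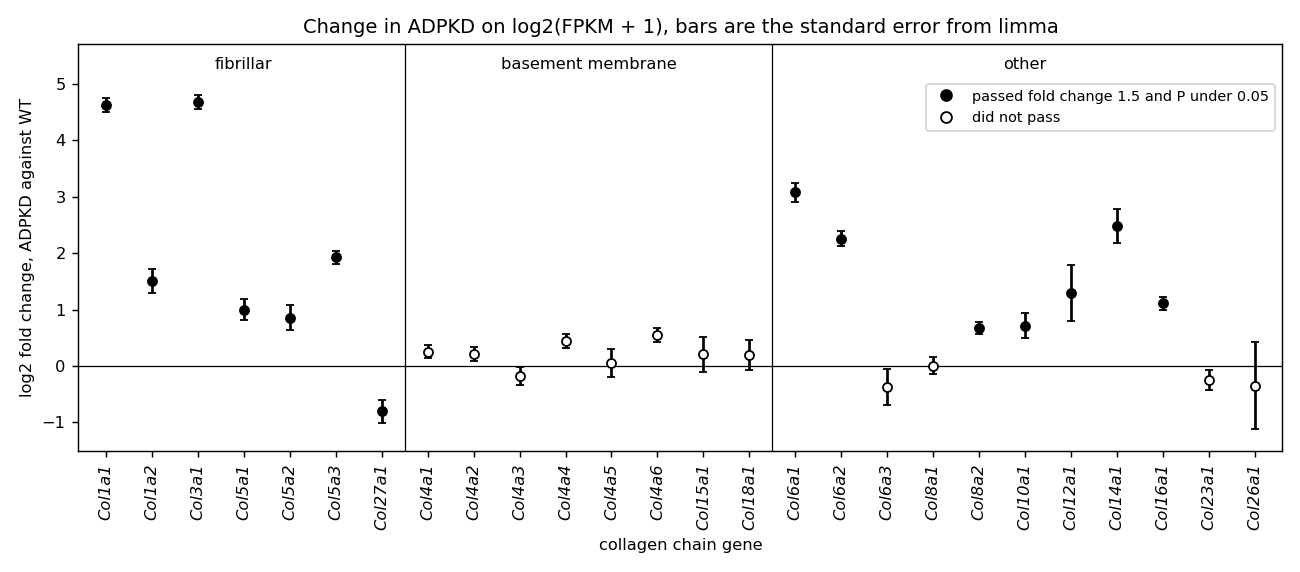
Change of each of the 26 tested chain genes in ADPKD against WT as the log2 fold change of FPKM + 1, with the standard error from limma as bars and filled points for genes that passed the fold change and P thresholds. Col3a1 and Col1a1 lie highest at 4.67 and 4.62, all 8 basement membrane chains are open points between -0.17 and 0.55, and Col27a1 is the filled point below 0.

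Collagen I and III are the main fibre-forming collagens of connective tissue. Col1a1 (chr11:94936224-94953042, plus strand, GRCm38), the alpha-1 chain of collagen I, had 0.364 and 0.389 FPKM in the WT libraries and 32.3 and 33.4 in the ADPKD libraries. Col3a1 (chr1:45311538-45349706, plus strand), the chain of collagen III, had 0.240 and 0.382 FPKM in WT and 32.2 and 32.6 in ADPKD. In both genes the ADPKD libraries lay close together and far above WT, where 73 and 79 reads of Col1a1 and 72 and 116 reads of Col3a1 stood behind the values. The mean FPKM rose 87.3-fold for Col1a1 and 104-fold for Col3a1, and the log2 fold changes were 4.62 ± 0.12 and 4.67 ± 0.12 (standard error, adjusted p = 0.000241 for both, limma with Benjamini-Hochberg adjustment).

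Col1a2 (chr6:4504814-4541544, plus strand), the partner chain of Col1a1, behaved differently in size. It was already at 6.22 and 9.94 FPKM in WT and reached 23.3 and 25.4 in ADPKD, a 3.01-fold higher mean, with a log2 fold change of 1.51 ± 0.21 (adjusted p = 0.00719, limma). The FPKM of Col1a2 was therefore 17.1 and 25.6 times that of Col1a1 in WT, and 0.720 and 0.760 times in ADPKD.

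Collagen V is a minor fibrillar collagen that regulates fibre diameter, and its 3 chain genes all rose. Col5a1 had 4.09 and 5.28 FPKM in WT and 8.97 and 11.8 in ADPKD (log2 fold change 0.998 ± 0.183, adjusted p = 0.0145, limma). Col5a2, which lies beside Col3a1 on chromosome 1 on the other strand, had 7.39 and 5.40 FPKM in WT and 10.1 and 14.8 in ADPKD (log2 fold change 0.85 ± 0.22, adjusted p = 0.0376, limma). Col5a3 went from 0.221 and 0.123 FPKM to 3.50 and 3.37, a 19.96-fold higher mean (log2 fold change 1.92 ± 0.12, adjusted p = 0.00186, limma). The groups did not overlap for any of the 3 chains. Col5a2 was not called without WT replicate 2, where its log2 fold change was 0.66.

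Col27a1, a fibrillar chain of cartilage matrix, was the only one of the 26 tested chains called lower in ADPKD against WT. Its FPKM was 3.56 and 2.98 in WT and 1.93 and 1.03 in ADPKD, with a log2 fold change of -0.80 ± 0.20 (adjusted p = 0.0350, limma). The call was lost without ADPKD replicate 2 and without WT replicate 1, and over the fits that left out a library the log2 fold change lay between -1.07 and -0.54.

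The sequences before the start of 3 fibrillar genes are shown, picked among those called higher in ADPKD for a window without annotated exon bases. Their rises differed in size, with the mean FPKM 104-fold higher for Col3a1, 2.22-fold for Col5a1 and 19.96-fold for Col5a3. Each is the RefSeq sequence of the 250 bases upstream of the annotated start in GRCm38.p6, 5′ to 3′ on the strand of the gene, and contains no annotated exon base. Capitals mark matches, on either strand, to the CCAAT box (letters CCAAT), the TATA box (letters TATAAA), the GC box (letters GGGCGG), the core of the cAMP response element (letters TGACG) and the AP-1 site (letters TGANTCA), which do not overlap here. Col3a1 is at chr1:45311288-45311537, plus strand, Col5a1 at chr2:27886175-27886424, plus strand, and Col5a3 at chr9:20815068-20815317, minus strand.
Col3a1: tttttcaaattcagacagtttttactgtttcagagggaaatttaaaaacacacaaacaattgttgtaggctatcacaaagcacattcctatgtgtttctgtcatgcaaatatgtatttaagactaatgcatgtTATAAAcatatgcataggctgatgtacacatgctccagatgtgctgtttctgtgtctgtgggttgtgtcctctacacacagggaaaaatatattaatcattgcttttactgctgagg
Col5a1: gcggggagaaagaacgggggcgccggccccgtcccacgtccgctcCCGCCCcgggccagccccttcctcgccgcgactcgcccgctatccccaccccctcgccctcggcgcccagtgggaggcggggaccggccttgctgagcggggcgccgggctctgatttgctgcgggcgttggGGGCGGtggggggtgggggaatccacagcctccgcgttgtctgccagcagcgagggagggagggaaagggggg
Col5a3: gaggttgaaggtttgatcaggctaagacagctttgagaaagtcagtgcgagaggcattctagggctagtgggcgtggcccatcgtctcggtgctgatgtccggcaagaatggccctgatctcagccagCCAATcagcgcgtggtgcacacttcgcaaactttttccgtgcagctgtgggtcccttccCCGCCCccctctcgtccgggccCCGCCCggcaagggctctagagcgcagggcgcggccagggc
The window of Col3a1 had 35.2% G and C bases and a TATAAA that began 117 bases before the start. That of Col5a1 had 76.4% G and C bases and GGGCGG at 205 and 73 bases before the start, and that of Col5a3 had 62.8%, CCAAT at 122 bases and GGGCGG at 63 and 41 bases. The RefSeq table held 35 of the 44 chain genes. CCAAT was in 12 of these 35 windows and in 34.5% of the 27025 windows of all genes, TATAAA in 5 and 13.0%, GGGCGG in 21 and 32.9%, TGACG in 4 and 17.9%, and TGANTCA in 1 and 6.87%. TGACG was in the window of none of the 9 chain genes called higher in ADPKD for which a window was at hand. A match describes these letters only.

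None of the basement membrane chains was called in ADPKD against WT, and their log2 fold changes lay between -0.17 and 0.55. Col4a1 (chr8:11198423-11312826, minus strand), the most abundant chain, had 199 and 208 FPKM in WT and 249 and 236 in ADPKD, and Col4a2 (chr8:11312805-11449287, plus strand) had 164 and 169 in WT and 183 and 204 in ADPKD. The ADPKD libraries lay above the WT libraries for both, with log2 fold changes of 0.25 ± 0.11 and 0.21 ± 0.12 that did not pass the test (adjusted p = 0.151 and 0.236, limma). Of the 8 chains, 7 had a positive log2 fold change.

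Col4a3, Col4a4 and Col4a5 encode the network of the glomerular and collecting duct basement membrane that is altered in Alport syndrome. Col4a4 (chr1:82448423-82586849, minus strand) had 33.7 and 36.9 FPKM in WT and 51.3 and 45.9 in ADPKD, and Col4a6 (chrX:141165403-141474076, minus strand), a chain of smooth muscle and tubule basement membranes, had 1.40 and 1.79 in WT and 2.70 and 2.86 in ADPKD. Their log2 fold changes of 0.45 ± 0.13 and 0.55 ± 0.13 (adjusted p = 0.0480 and 0.0297, limma) remained below the fold change threshold. Col4a6 was called higher at 0.77 with a pseudocount of 0.1, and without WT replicate 2 its log2 fold change was 0.65. Col4a3 overlapped between the groups, with 41.7 and 54.1 FPKM in WT and 40.5 and 43.5 in ADPKD, and 5.65% of its exon bases are shared with C430014B12Rik on the other strand, whose reads cannot be told apart where counting ignores strand.

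The ADPKD libraries differed from each other in 3 basement membrane chains. Col4a5 had 22.1 and 13.6 FPKM in ADPKD around the WT values of 15.5 and 18.1, Col15a1 had 38.8 and 19.4 around 25.9 and 21.7, and Col18a1, the precursor of endostatin, had 158 and 92.3 around 94.6 and 117. In each of them replicate 1 was above and replicate 2 below both WT libraries, and the direction of the mean change depended on which ADPKD library was kept. Without ADPKD replicate 2, Col15a1 was called higher with a log2 fold change of 0.69.

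Collagen VI is a beaded microfibril around cells, built from a Col6a1, a Col6a2 and a further chain. Col6a1 (chr10:76708792-76726168, minus strand) had 0.687 and 1.14 FPKM in WT and 16.1 and 14.04 in ADPKD, and its neighbour Col6a2 (chr10:76595762-76623630, minus strand) had 0.189 and 0.388 in WT and 5.43 and 4.83 in ADPKD. The means rose 16.5-fold and 17.8-fold, with log2 fold changes of 3.08 ± 0.17 and 2.25 ± 0.14 (adjusted p = 0.00186 for both, limma). Col6a3, the longest of these chains, gave another picture. It had 7.51 and 7.58 FPKM in WT and 8.28 and 3.68 in ADPKD, and its log2 fold change of -0.37 ± 0.32 did not pass the test (adjusted p = 0.421, limma). Without ADPKD replicate 1 it was called lower at -0.87, and without ADPKD replicate 2 it was at 0.12.

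Collagens XII, XIV and XVI belong to the fibril-associated collagens with interrupted triple helices (FACIT), which attach to the surface of fibres. Col14a1 rose from 0.602 and 0.677 FPKM in WT to 11.5 and 5.60 in ADPKD, and Col16a1 from 1.07 and 1.30 to 3.72 and 3.69. The ADPKD libraries of Col16a1 agreed closely and those of Col14a1 did not, while both genes were clear of WT. Their log2 fold changes were 2.47 ± 0.30 and 1.11 ± 0.12 (adjusted p = 0.00530 and 0.00420, limma). Col12a1 had 6.53 and 6.82 FPKM in WT, and 9.68 in ADPKD replicate 1 and 32.0 in ADPKD replicate 2. Its log2 fold change of 1.29 ± 0.50 passed the unadjusted threshold only (adjusted p = 0.110, limma), and was lost when any library other than ADPKD replicate 1 was left out. It was 0.48 without ADPKD replicate 2.

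Among the short-chain collagens, Col8a2 went from 0.117 and 0.130 FPKM in WT to 0.768 and 0.799 in ADPKD (log2 fold change 0.67 ± 0.11, adjusted p = 0.0106, limma), a call that was lost with quantile normalization at 0.43 and when centred by gene structure, as described below for MMPP, at 0.54. Its partner chain Col8a1, a component of vessel and subendothelial matrix, had 6.73 and 5.83 FPKM in WT and 5.55 and 7.16 in ADPKD, with a log2 fold change of 0.01 ± 0.15 (adjusted p = 0.977, limma). Col10a1, a marker of hypertrophic cartilage, had 2 and 3 reads in the WT libraries, at or below the floor of 3 reads, and 43 and 101 reads in the ADPKD libraries, which is 0.415 and 1.01 FPKM. No fold is given for it. It passed the unadjusted threshold only (adjusted p = 0.0600, limma), and was not called without either WT library or without ADPKD replicate 2.

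Col23a1, a transmembrane collagen, had 1.539 and 1.019 FPKM in WT and 0.775 and 1.05 in ADPKD, and was not called. Col26a1 differed most between replicates of all tested chains, with 7.81 FPKM in ADPKD replicate 1 and 0.462 in ADPKD replicate 2 on either side of the 3.68 and 3.44 in WT. The mean FPKM was 1.16 times that of WT, while the log2 fold change was -0.35. Its change turned from -1.64 without ADPKD replicate 1 to 0.95 without ADPKD replicate 2, with a call in each case. Over the 26 tested chains the median difference between replicates on the log2 scale was 0.17 for WT, 0.20 for ADPKD and 0.07 for ADPKD+MMPP, and differences above 1 occurred in ADPKD only, for Col12a1 and Col26a1.

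**Figure D3:**
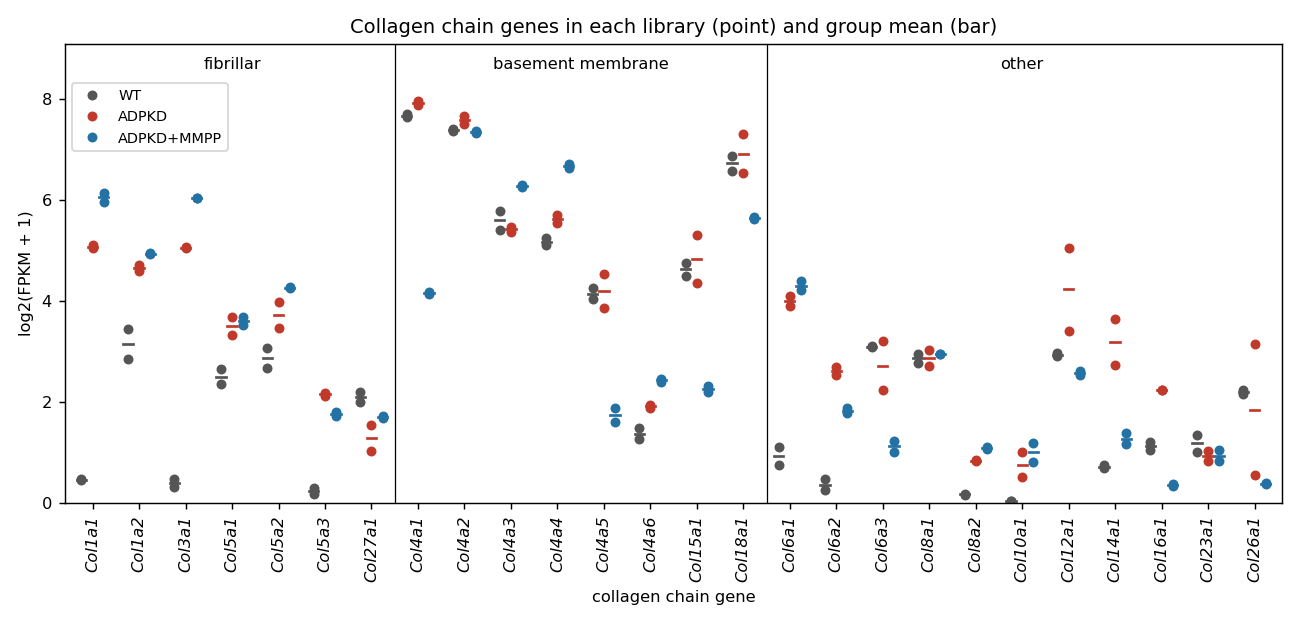
log2(FPKM + 1) of the 26 tested chain genes in each library (points) with the mean of each group (bars), by class and group. The ADPKD points of Col12a1 and Col26a1 lie farthest apart, and the ADPKD+MMPP points of Col4a1 are near 4 where those of WT and ADPKD are near 8.

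Genes that mark fibroblasts and other mesenchymal cells moved in the same comparison. Of 13 tested genes in this list, 8 were called higher in ADPKD and 2 lower, beside 14.2% and 12.5% of all tested genes. Dcn, decorin, which binds collagen fibres, had 0.930 and 1.90 FPKM in WT and 19.4 and 37.8 in ADPKD, and Thy1, named after its values were seen, had 0.164 and 0.216 in WT and 5.89 and 7.60 in ADPKD. Mfap5 was listed at 0 in WT replicate 1. The most abundant genes of the list did not follow. Pdgfrb, the receptor of pericytes, was called lower with 91.3 and 65.6 FPKM in WT and 38.9 and 31.4 in ADPKD, and Acta2, smooth muscle actin, had 33.0 and 27.5 in WT and 34.5 and 40.0 in ADPKD. The summed FPKM of the 15 genes was 148 and 118 in WT and 132 and 153 in ADPKD. The summed leukocyte markers were at 67.3 and 67.5 FPKM in WT and 483 and 578 in ADPKD, and the summed podocyte markers at 995 and 1369 in WT and 249 and 132 in ADPKD. The endothelial sum was 1064 and 907 in WT and 606 and 621 in ADPKD, and the intercalated cell sum 243 and 257 in WT and 54.2 and 22.9 in ADPKD. The principal cell sum was 2275 and 2993 FPKM in WT, and 2708 in ADPKD replicate 1 and 1022 in ADPKD replicate 2. Of 11 tested principal cell genes, 1 was called higher in ADPKD and 0 lower. Hsd11b2, one of the most abundant of them, had 432 and 56.4 FPKM in the ADPKD libraries. The part of other cell types in the changes of the collagen chains was not tested. The part of principal cells in the differences between the ADPKD libraries was not tested either.

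The second comparison, ADPKD+MMPP against ADPKD, asks what the nanoparticle changes in the diseased cells. Of the 26 tested chains, 4 were called higher and 9 lower, where 27.9% of all tested genes were called higher and 43.0% lower. The groups did not overlap in 10 chains that were higher and 12 that were lower, beside 36.1% and 51.7% of all tested genes. Median log2 fold changes were 0.41 for fibrillar, -0.76 for basement membrane and -0.79 for other chains, and -0.36 for all tested genes. The chains called higher were Col1a1, Col3a1, Col4a3 and Col4a4, and those called lower were Col4a1, Col4a5, Col15a1, Col18a1, Col6a2, Col6a3, Col12a1, Col14a1 and Col16a1. All 13 calls also passed with the adjusted p from limma, as did 27.7% of all tested genes for higher and 42.6% for lower.

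The ADPKD+MMPP values differed from the others in how they were composed. Of the chain genes with 1 to 200 reads, 0 of 19 and 0 of 25 had an odd number of reads in the ADPKD+MMPP libraries, where it was 8 of 22 and 13 of 25 in WT and 7 of 18 and 9 of 17 in ADPKD. Over all genes with low values, odd numbers made up 35.4% to 37.3% of each WT or ADPKD library, but 8.10% and 7.71% of the ADPKD+MMPP libraries. As the treated libraries are the same ones that carry this mark, treatment and the making of the values cannot be told apart.

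The change after MMPP also varied with the structure of the annotated gene, given here as a share, the percentage of its exon bases found in only 1 transcript of GENCODE vM21. Of the 9 tested chains with a share under 50%, 8 were called lower and none higher, with a median log2 fold change of -1.88. Of the 5761 protein-coding genes with such a share, 69.1% were called lower and 7.17% higher, with a median of -1.20. Of the 17 chains with a larger share, 4 were called higher and 1 lower, with a median of 0.25, beside 49.7% higher and 18.6% lower and a median of 0.60 among the 6614 protein-coding genes of that kind. Single chains departed from this, with Col27a1 (48.1%) at 0.41 and Col26a1 (65.1%) at -1.46. Over the 26 chains Spearman's rho between the share and the change was 0.718 for ADPKD+MMPP against ADPKD and 0.070 for ADPKD against WT. Over 12375 protein-coding genes it was 0.649 and 0.045, and genes of 1 library share its depth and processing and are not independent. Each library was therefore also centred within 20 bins of this share, and the centred value stands beside most of the chain changes below. The cell markers are given without centring. Centred, 2 chains were called higher and 9 lower after MMPP, where 33.8% and 24.5% of the protein-coding genes were. In ADPKD against WT, 12 were then higher and 1 lower, beside 13.7% and 13.6% of the protein-coding genes.

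**Figure D4:**
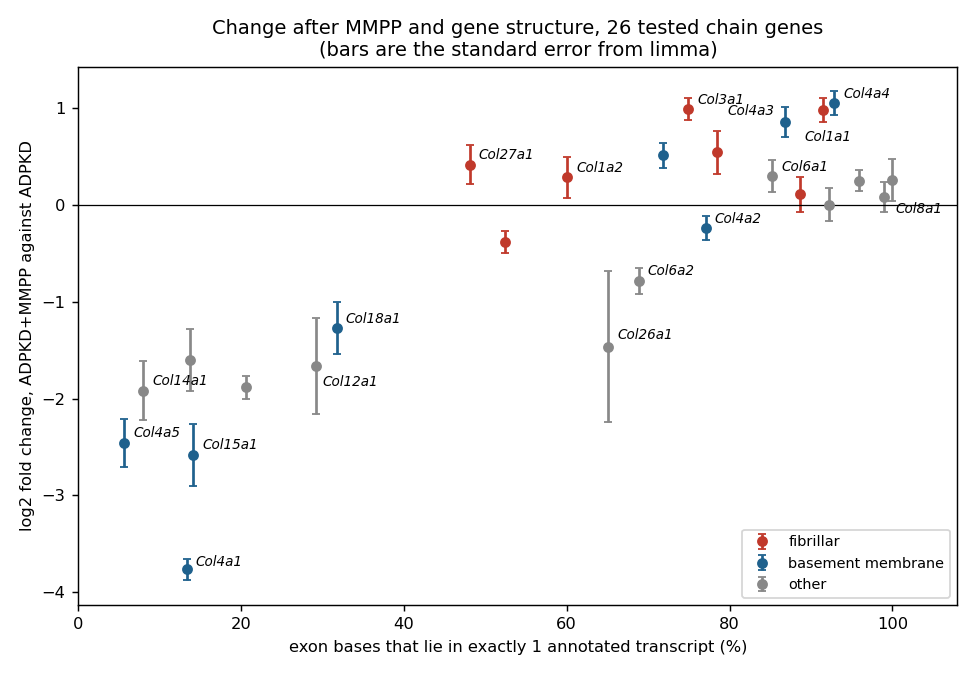
log2 fold change in ADPKD+MMPP against ADPKD of the 26 tested chain genes against the percentage of their exon bases found in only 1 annotated transcript, with the standard error from limma as bars and colours for the classes. Chains with a share under 35% all lie below -1, and the 4 chains called higher have shares between 74.9% and 92.8%.

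Among the fibrillar chains, Col1a1 had 32.3 and 33.4 FPKM in ADPKD and 61.6 and 70.1 in ADPKD+MMPP, and Col3a1 had 32.2 and 32.6 in ADPKD and 65.3 and 65.1 in ADPKD+MMPP. The treated libraries were the highest of the 6 for both genes. Their log2 fold changes were 0.98 ± 0.12 and 0.99 ± 0.12 (adjusted p = 0.000723 and 0.000601, limma), while the centred values were -0.07 and 0.57, and neither was then called. The other fibrillar chains were not called. Col1a2 had 29.5 and 30.1 FPKM in ADPKD+MMPP, Col5a1 had 10.5 and 11.9, Col5a2 had 18.1 and 18.4, Col5a3 had 2.29 and 2.50, and Col27a1 had 2.29 and 2.21, with log2 fold changes between -0.39 and 0.54 against ADPKD. When centred, Col1a2 and Col27a1 were called higher at 0.63 and 1.30, and Col5a1 lower at -0.94.

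The lowest log2 fold change of all 26 chains after MMPP was that of Col4a1. It fell from 249 and 236 FPKM in ADPKD to 17.1 and 16.7 in ADPKD+MMPP, with a log2 fold change of -3.76 ± 0.11 (adjusted p = 1.96e-05, limma). In the treated libraries 1511 and 1364 reads stood behind it. Centred it was at -1.83, and it was called lower under each of the 16 alternatives tried, as no other chain was in this comparison. Its share is 13.3%, against 77.1% for Col4a2, the partner encoded head to head with it. Col4a2 had 183 and 204 FPKM in ADPKD and 161 and 165 in ADPKD+MMPP and was not called, at -0.24 ± 0.12 (adjusted p = 0.112, limma) and -1.05 when centred, where it was called lower.

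Col4a3 rose from 40.5 and 43.5 FPKM to 77.9 and 75.7 and Col4a4 from 51.3 and 45.9 to 98.8 and 104, with log2 fold changes of 0.85 ± 0.16 and 1.05 ± 0.13 (adjusted p = 0.00351 and 0.000608, limma). Centred, these changes were -0.26 and 0.0032 and were not called, and Col4a3 was also not called with a common sum of FPKM, with quantile normalization or at a fold change of 2. Col4a6 had 2.70 and 2.86 FPKM in ADPKD and 4.25 and 4.51 in ADPKD+MMPP, at 0.51 ± 0.13 under the fold change threshold. It was called higher with TMM factors, with quantile normalization and with a pseudocount of 0.1, and was at 0.09 and not called when centred. Col4a5 fell from 22.1 and 13.6 FPKM to 2.67 and 2.05, Col15a1 from 38.8 and 19.4 to 3.58 and 3.96, and Col18a1 from 158 and 92.3 to 50.1 and 48.7. The groups of these 3 chains did not overlap, and the log2 fold changes were -2.46 ± 0.25, -2.58 ± 0.32 and -1.27 ± 0.27 (adjusted p = 0.000312, 0.000674 and 0.00614, limma). Their centred values were -0.34, -0.64 and 0.11, and none was then called.

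Of the other chains, those that rose in ADPKD did not move together after MMPP. Col6a1 had 17.5 and 19.96 FPKM in ADPKD+MMPP and was not called, at 0.30 ± 0.17 against ADPKD and -0.82 when centred, where it was called lower. Col6a2 fell from 5.43 and 4.83 FPKM to 2.44 and 2.66, with a log2 fold change of -0.79 ± 0.14 (adjusted p = 0.00276, limma) and -0.99 when centred. It was the only chain with a share of at least 50% that was called lower, and its call was lost at a fold change of at least 2 and with quantile normalization. Col14a1 fell from 11.5 and 5.60 FPKM to 1.23 and 1.59, Col16a1 from 3.72 and 3.69 to 0.251 and 0.299, and Col12a1 from 9.68 and 32.0 to 4.79 and 5.08. The log2 fold changes were -1.92 ± 0.30, -1.88 ± 0.12 and -1.66 ± 0.50 (adjusted p = 0.00188, 6.59e-05 and 0.0236, limma), and the centred values of 0.19, -0.10 and 0.06 were not called. For Col12a1 the call was also lost without either ADPKD+MMPP library.

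Col6a3 fell from 8.28 and 3.68 FPKM in ADPKD to 1.019 and 1.333 in ADPKD+MMPP, at -1.60 ± 0.32 (adjusted p = 0.00482, limma) and 0.34 when centred. Col26a1 had 0.311 and 0.291 FPKM after MMPP, below both ADPKD libraries, and its log2 fold change of -1.46 ± 0.78 was not called (adjusted p = 0.133, limma). Col8a1 had 6.73 and 6.69 FPKM, Col8a2 had 1.09 and 1.14, Col10a1 had 0.758 and 1.29 and Col23a1 had 0.768 and 1.05. These 4 chains lay between -0.0011 and 0.25 on the log2 scale against ADPKD and were not called, and each was called lower when centred.

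Cell markers also differed between these libraries. The summed FPKM of the principal cell markers went from 2708 and 1022 in ADPKD to 5972 and 6013 in ADPKD+MMPP, with 6 of 11 tested genes called higher and 3 lower, and that of the intercalated cell markers from 54.2 and 22.9 to 180 and 190, with 7 of 8 called higher, where 27.9% of all tested genes were called higher and 43.0% lower. The summed FPKM of the mesenchymal list was 132 and 153 in ADPKD and 113 and 109 in ADPKD+MMPP, and of its 13 tested genes 3 were called higher and 7 lower, with Pdgfrb at 1.05 and 0.837 FPKM and Acta2 at 84.5 and 78.3 after MMPP. The leukocyte sum went from 483 and 578 to 1059 and 1110, but of its 8 tested genes 4 were called higher and 4 lower. The proximal tubule sum went from 317 and 148 to 2234 and 2237, with 9 of 12 genes called higher. The endothelial sum went from 606 and 621 to 329 and 358, with 7 of 10 called lower. The podocyte sum went from 249 and 132 to 122 and 127, with 4 of 7 called lower. Ptpro, a podocyte gene, was listed at 0 in each library after MMPP. None of these marker values was centred by gene structure, and the sums were not scaled to a common total FPKM. The part of these cells in the changes after MMPP was not tested.

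Against WT, the ADPKD+MMPP libraries had 13 chain genes called higher and 6 lower, where 30.1% of all tested genes were called higher and 43.8% lower. The groups did not overlap in 14 chains that were higher and 9 that were lower, beside 38.9% and 53.0% of all genes. This comparison shares its treated libraries with the one against ADPKD and its WT libraries with the first. Col1a1, at 61.6 and 70.1 FPKM after treatment, was 175-fold above its WT mean, Col3a1 was 210-fold above, Col1a2 was 3.69-fold, Col5a3 was 13.9-fold, Col6a1 was 20.5-fold and Col6a2 was 8.86-fold above. These 6 chains and Col4a6, which was 2.75-fold above WT, were called higher under each of the 16 alternatives tried, the centred one included. Centred, Col1a1 was at 4.43 and Col3a1 at 5.21, while Col4a6 at 0.60 lay just above the fold change threshold. The other 6 chains called higher were Col4a3, Col4a4, Col5a1, Col5a2, Col8a2 and Col10a1, and each lost its call when centred. Col4a1, Col4a5, Col15a1, Col18a1, Col6a3 and Col16a1 were called lower. Of these, Col4a1 was lower under each of the 16 alternatives, with a log2 fold change of -3.51 ± 0.11 (adjusted p = 1.62e-05, limma) and -1.55 when centred. The other 5 lost their lower calls when centred, with Col4a5 at -0.43, Col15a1 at -0.41, Col6a3 at -0.013 and Col18a1 at 0.28 not called, and Col16a1 turning from -0.77 to a higher call at 1.16.

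The ratios between chains that are made together differed between the groups, and in a ratio within a library its depth and scaling cancel. The ratio of Col1a2 to Col1a1 was 17.1 and 25.6 in WT, 0.720 and 0.760 in ADPKD, and 0.479 and 0.429 in ADPKD+MMPP. Col3a1 stayed near Col1a1 in every library, between 0.659 and 1.06 times its FPKM. The ratio of Col4a2 to Col4a1 was between 0.732 and 0.864 in WT and ADPKD, and was 9.42 and 9.85 in ADPKD+MMPP. That of Col4a6 to Col4a5 went from 0.0901 and 0.0989 in WT and 0.122 and 0.211 in ADPKD to 1.59 and 2.20. That of Col4a4 to Col4a3 was 0.809 and 0.682 in WT, 1.26 and 1.06 in ADPKD and 1.27 and 1.37 in ADPKD+MMPP, above WT in all 4 libraries from Pkd1-/- mice. The ratio of Col6a2 to Col6a1 was between 0.274 and 0.344 in WT and ADPKD and was 0.139 and 0.133 in ADPKD+MMPP. Ratios are not free of gene structure: the 2 ratios that differed most after MMPP pair a chain of low share, 13.3% for Col4a1 and 5.64% for Col4a5, with a chain of high share, 77.1% for Col4a2 and 71.9% for Col4a6, whereas Col4a3 and Col4a4 have 86.8% and 92.8%.

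**Figure D5:**
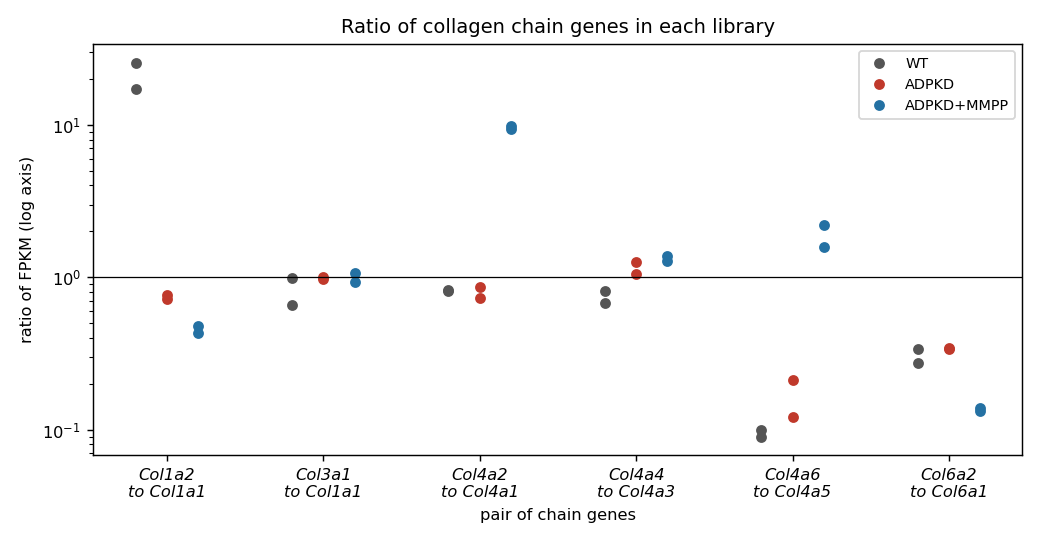
Ratio of the FPKM of pairs of chain genes in each library on a log axis, by group. The Col1a2 to Col1a1 ratio is above 15 in both WT libraries and below 1 in the other 4, and the Col4a2 to Col4a1 ratio is near 10 only in the ADPKD+MMPP libraries.

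Within the genome, Col4a1 and Col4a2 start head to head, with RefSeq first bases at 11312826 on the minus strand and 11312805 on the plus strand of chromosome 8, so that 22 bases overlap. The RefSeq starts of Col4a6 and Col4a5 on chromosome X have 1342 bases between them. Exon bases shared with a gene on the other strand are 0.295% of Col4a1 and 0.982% of Col4a2.

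The 18 chains below the limit reached 1 FPKM in at most 1 library. Col9a1 was listed at 0 in all 6 libraries. Col2a1, Col6a4, Col6a6, Col9a2, Col11a1, Col19a1, Col22a1 and Col25a1 did not exceed 0.387 FPKM in any library, and Col6a5, Col9a3, Col17a1, Col20a1 and Col24a1 did not exceed 0.778. In the last 4 chains one ADPKD library exceeded 1 FPKM: Col13a1, a transmembrane collagen, had 0.484 and 3.78 FPKM in ADPKD with 0.782 and 0.655 in WT, Col7a1, the anchoring fibril collagen of skin, had 0.791 and 2.05 with 0.766 and 0.857 in WT, Col11a2 had 0.400 and 1.24 with 0.647 and 0.733 in WT, and Col28a1 had 0.592 and 1.14 with 0.0934 and 0.0132 in WT. In each of these it was ADPKD replicate 2. Without a limit on FPKM, 43 chains could be fitted, and 13 were called higher and 1 lower in ADPKD against WT, beside 6.86% and 6.20% of all genes.

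The genes that modify, secrete and cross-link collagen were given as a list of 35, of which 34 were listed and 29 tested. In ADPKD against WT, 4 were called higher and 4 lower, 13.8% each way beside 14.2% and 12.5% of all tested genes, with a median log2 fold change of 0.02, beside 0.03 over all tested genes. Lox, the lysyl oxidase that starts collagen cross-links, went from 1.44 and 1.37 FPKM in WT to 7.47 and 43.9 in ADPKD, with the libraries of ADPKD far apart. Loxl1, a relative of Lox, went from 1.16 and 1.69 to 13.5 and 18.3, and Adamts2, which removes the amino-terminal propeptide of fibrillar procollagens, from 0.764 and 0.906 to 3.26 and 6.87. Their log2 fold changes were 3.02, 2.79 and 1.66 (adjusted p = 0.0314, 0.00224 and 0.0124, limma). The 3 lowest were Colgalt2, a collagen galactosyltransferase, at -1.75 (adjusted p = 0.0158, limma), P3h3 at -0.87 (adjusted p = 0.0207, limma) and P3h2 at -0.81 (adjusted p = 0.0596, limma), the last of these a prolyl 3-hydroxylase of collagen IV. Serpinh1, the collagen chaperone HSP47, had 126 and 126 FPKM in WT and 172 and 152 in ADPKD and was not called. It was chosen after its values were seen.

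After MMPP, 5 genes of this list were called higher and 16 lower against ADPKD, with a median of -0.80 beside 27.9% higher, 43.0% lower and a median of -0.36 over all tested genes. With centring 11 were higher and 7 lower, beside 33.8% and 24.5% of the protein-coding genes, with a median of 0.26. The 3 highest were P3h2, Crtap, a partner of the prolyl 3-hydroxylases, and P4hb, the beta subunit of prolyl 4-hydroxylase, at 1.63, 1.55 and 1.34, and all 3 remained called when centred. The 3 lowest were Pxdn, which cross-links collagen IV, Lox, and Furin, a proprotein convertase, at -3.45, -3.31 and -3.14, with centred values of -1.51, -1.20 and -2.48, of which that of Lox was not called. Pxdn fell from 15.5 and 20.9 FPKM to 0.720 and 0.760.

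Of 10 collagen receptor genes, 7 were tested. In ADPKD against WT the only call among them, where 14.2% of all tested genes were higher and 12.5% lower, was Mrc2, the endocytic receptor that takes up collagen fragments, which fell from 19.6 and 21.3 FPKM to 11.8 and 8.82 (log2 fold change -0.94, adjusted p = 0.0121, limma). Centred, Mrc2 was still called lower at -0.94. Ddr1, at 0.58 without centring, was then called higher at 0.73, where 13.7% of the protein-coding genes were higher and 13.6% lower. After MMPP, where 27.9% of all tested genes were higher and 43.0% lower, 2 were called higher, Itga2 at 1.57 and Itga1 at 0.87, both collagen-binding integrin alpha subunits, and 4 were lower. The lowest were the collagen-binding receptor kinases Ddr1 and Ddr2 and the integrin subunit Itgb1, at -3.81, -2.22 and -1.08. The fourth was Itga10, a further collagen-binding alpha subunit, at -0.78, named after its value was seen. When centred, Ddr1 was still called at -2.03, Itga2, Itga1, Ddr2 and Itgb1 were not called, and Itga10 turned to a higher call at 1.33. The median of the 7 genes was -0.10 in ADPKD against WT and -0.78 after MMPP, which became 0.35 when centred.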

How the data were processed

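The deposited values are FPKM, 1 table per library, in 3 groups of 2 libraries. Reads were aligned by the authors to GRCm38/mm10 with HISAT2 2.1.0 and counted with featureCounts 1.6.0. The annotation, the strand setting and the step from counts to FPKM are not given in the sources used here. The authors' own test used counts, which were not analysed here, and FPKM were not treated as counts. Members were all symbols that follow the naming pattern of collagen chains. The members, classes and gene lists were chosen with earlier results of these data known.

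Genes with at least 1 FPKM in at least 2 libraries were analysed as log2(FPKM + 1) by limma 3.58.1 (R 4.3.3), with 1 fit over all groups without covariates. Calls used the study's thresholds, a fold change of 1.5 and P under 0.05, with Benjamini-Hochberg adjusted p beside them. Every tested chain is named. Of the biosynthesis and receptor lists, the called genes with the 3 highest and 3 lowest changes are named, and of the marker lists some of the most abundant genes and those listed at 0. Depth was read from the steps of FPKM times exon length in GENCODE vM21, to which all 44 chains matched, and 3 reads were taken as the floor, which covers counting error only. Between 98.6% and 99.1% of values under 20 reads came out whole within 0.1 reads. The fit and the depth step were tested on simulated data.

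Alternatives covered the pseudocount, the filter, scaling, centring by gene structure, thresholds, the groups in the fit, a replicate block and leaving out each library.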

Additional observations from a re-analysis of the deposited data

How the results depend on the processing

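The alternatives were another scaling (TMM factors, a common sum of FPKM, quantile normalization), centring by gene structure, a pseudocount of 0.1, no filter, other thresholds, fits of only the groups compared, a replicate block and leaving out each library. Over the 26 chains and 16 alternatives, 371 values of ADPKD against WT, 361 of ADPKD+MMPP against ADPKD and 374 of ADPKD+MMPP against WT kept both direction and call. Part of this was fixed in advance. Other thresholds, no filter, a replicate block and fits of only the groups compared leave the log2 fold change as it is. So does leaving out a library of the group not compared. In these only the call could move. With centring by gene structure alone, 23, 4 and 8 of the 26 chains did so, in the same order. In ADPKD against WT, Col1a1, Col1a2, Col3a1, Col5a3, Col6a1, Col6a2, Col14a1 and Col16a1 were called higher under all 16. In ADPKD+MMPP against ADPKD, Col4a1 alone kept its call under all 16. The cause of the changes below was not tested. The depth of the ADPKD+MMPP libraries and 2 libraries per group limit all values.

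Scaling moved the median change over all genes in ADPKD+MMPP against ADPKD from -0.36 to 0.10 with quantile normalization, to 0.15 with centring over protein-coding genes and to -0.55 with a common sum, and calls over the 14862 genes went from 4143 higher and 6397 lower to 5363 and 4577 with quantile normalization. Centring, which also left only the 12375 protein-coding genes, gave 4185 and 3028. At a fold change of 2, all genes had 1016 and 935 calls in place of 2109 and 1861 in ADPKD against WT, and the higher calls in ADPKD+MMPP fell in number from 4143 to 2801 against ADPKD. For the chains, that threshold left 0 lower calls in ADPKD against WT and 1 higher call, of Col4a4, in ADPKD+MMPP against ADPKD.

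With centring, changes of sign in ADPKD against WT were Col4a5 at -0.086 and Col8a1 at -0.12. In ADPKD+MMPP against ADPKD, 2 chains were called higher, the basement membrane median was -0.30, and signs changed for Col5a2 at -0.27, Col4a3 at -0.26, Col6a3 at 0.34, Col5a1 at -0.94, Col8a2 at -0.80, Col10a1 at -0.92, Col6a1 at -0.82, Col18a1 at 0.11, Col5a3 at 0.26, Col12a1 at 0.062, Col1a1 at -0.065, Col14a1 at 0.19 and Col8a1 at -0.97. In ADPKD+MMPP against WT, the fibrillar median was 2.06 and that of the basement membrane chains -0.42, and signs changed for Col4a3 at -0.46, Col5a1 at -0.065, Col27a1 at 0.48, Col8a2 at -0.25, Col16a1 at 1.16, Col10a1 at -0.31, Col18a1 at 0.28, Col12a1 at 1.30 and Col8a1 at -1.08.

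With TMM factors, Col8a1 was at -0.0071 in ADPKD against WT, Col23a1 at 0.064 and the basement membrane median at -0.62 in ADPKD+MMPP against ADPKD, and Col4a2 at 0.089 and that median at -0.44 in ADPKD+MMPP against WT. With a common sum, Col4a5 was at -0.035 and Col8a1 at -0.068 in ADPKD against WT. Against ADPKD, Col5a1 was at -0.17, Col1a2 at -0.015 and Col8a1 at -0.19 after MMPP, and the basement membrane and other medians at -1.06 and -1.01, while against WT these medians were -0.94 and -0.26 and Col8a1 was at -0.26. With quantile normalization, the basement membrane and other medians were 0.090 and 0.48 and Col8a1 was at -0.029 in ADPKD against WT. After MMPP, 9 chains were then called higher against ADPKD, the fibrillar, basement membrane and other medians were 0.64, -1.03 and -0.14, Col5a3 was at 0.28 and Col23a1 at 0.67. Against WT these medians were 1.84, -0.94 and 0.51, Col27a1 was at 0.24, Col12a1 at 0.12 and Col23a1 at 0.38.

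Without the filter, the fibrillar and other medians were 0.85 and 0.18 in ADPKD against WT, and the other median was -0.40 against ADPKD and the fibrillar median 1.11 against WT after MMPP. With a pseudocount of 0.1, the other median was 1.57 in ADPKD against WT and the fibrillar median 1.91 in ADPKD+MMPP against WT.

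Over the fits that left out 1 library, between 11 and 13 chains were called higher and between 0 and 3 lower in ADPKD against WT, the 3 being Col27a1, Col6a3 and Col26a1 without ADPKD replicate 1. The fibrillar median ranged from 1.21 to 1.81, the basement membrane median from 0.046 to 0.45 and the other median from 0.65 to 0.97. In ADPKD+MMPP against ADPKD the basement membrane median ranged from -0.91 to -0.60 and the other median from -0.85 to -0.17, the last without ADPKD replicate 1. Ranges that included 0 in ADPKD against WT were -0.29 to 0.38 for Col4a5, -0.28 to 0.69 for Col15a1, -0.19 to 0.58 for Col18a1, -0.87 to 0.12 for Col6a3, -1.64 to 0.95 for Col26a1, -0.15 to 0.17 for Col8a1 and -0.36 to 0.012 for Col4a3. In ADPKD+MMPP against ADPKD they were -0.073 to 0.29 for Col5a1, -0.00070 to 0.50 for Col10a1, -0.081 to 0.24 for Col8a1 and -0.11 to 0.11 for Col23a1, and against WT -0.0048 to 0.17 for Col8a1.

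The labels number the replicates 1 and 2 in every group. Correlations of the deviations of same-numbered libraries from their group means were 0.129, -0.0080 and 0.014 over genes, so the numbers were not taken as pairs. With the replicate number as a block, 13 chains were called higher and 1 lower in ADPKD against WT, 4 and 9 in ADPKD+MMPP against ADPKD, and 13 and 7 in ADPKD+MMPP against WT, where Col26a1 was the added call.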
